A study of Rattus norvegicus with 6 samples.

Results

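Long-span spliced lncRNAs are transcripts whose few exons are joined across 50 kb or more of the genome. They were taken here as lncRNAs with an identifier of the NONCODE catalogue, a transcript length below the genomic span (end minus start plus 1, so that introns are present) and a span of at least 50000 nt. Of the 18649 listed lncRNAs, 17967 carried NONCODE identifiers, 9444 of these were spliced, and 511 had this span. The remaining 8933 spliced NONCODE lncRNAs were the background. No expression value entered the rule. Every listed lncRNA held at least 3 sequenced fragments over the 6 samples together, so the list has only lncRNAs with reads in these data.

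RNA-Seq compared control INS-1 cells (Con) with INS-1 cells treated with high glucose and palmitate (HG/PA), with 3 samples in each group, to find lncRNAs that differ in expression between them. INS-1 is a rat insulinoma line that secretes insulin and stands in for the beta cell of the pancreas. As a tumour line that divides in culture, it is not an islet. HG/PA cells were stimulated with 25 mM glucose and 0.5 mM palmitate, a saturated fatty acid bound to albumin, for 24 h. The line was cultured in a medium that contains glucose, at a level that the paper states and that is below that of HG/PA, and whether the Con cells received the albumin vehicle is not given in the sources used here, so glucose, palmitate and vehicle cannot be told apart. For RNA extraction TRIzol is named in the paper, whereas the sample records name a column kit. Protein-coding genes were not analysed here, so the cell type rests on the sample records.

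A lncRNA is an RNA without an evident protein product, and many are spliced and polyadenylated like messenger RNAs. In a long-span lncRNA nearly all of the transcribed region is intron, and RNA polymerase has to cross that region before the last exon exists. Exposure of beta cells to glucose and fatty acid in excess is known as glucolipotoxicity and impairs insulin secretion and survival.

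Levels are given as FPKM, which scales the fragments of a transcript by its length and by the depth of the library. Multiplied by transcript length, the values of a sample are whole multiples of its smallest step, which returns the fragments of every lncRNA and an implied library total between 12491547 and 13770879. The 511 long-span lncRNAs held 14625, 14435 and 13199 fragments in Con 1, 2 and 3, and HG/PA 1, 2 and 3 had 14123, 14739 and 13029, which was between 1.07% and 1.25% of all fragments on listed lncRNAs. A level below 3 fragments in a library was treated as not distinguishable from 0. Intervals and this floor cover counting error only.

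The long-span lncRNAs covered from 50018 to 1030392 nt (median 82353 nt). The span was from 100 to below 200 kb in 109 of them and 200 kb or more in 74. Their transcripts were no longer than those of the other spliced lncRNAs, with a median length of 615 nt against 625 nt. Exons therefore made up a median of 0.675% of the span, against 16.9% in the other spliced lncRNAs. They lay on 21 chromosomes, with 61 on chromosome 1, 52 on chromosome 2 and 43 on chromosome 4. As a share of the spliced lncRNAs of a chromosome they ranged from 2.72% on chromosome 10 to 9.96% on chromosome 17. Another listed lncRNA overlapped 302 of the 511, and 215 of them held at least 1 listed lncRNA wholly inside their span. None of the 511 identifiers matched the rat gene table used here, which is of another assembly, so the lncRNAs are given by identifier and by position on Rnor_6.0.

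Just inside the threshold were NONRATT024391.2 (50018 nt, chromosome 6) and NONRATT015383.2 (50141 nt, chromosome 2). NONRATT024391.2 had an FPKM of 0.668, 1.32 and 1.03 in Con against 0.726, 1.34 and 0.418 in HG/PA, and NONRATT015383.2 had no more than 2 fragments in any sample. Just outside were NONRATT026893.2 (49970 nt, chromosome 7), with an FPKM of 1.11, 3.93 and 2.45 in Con against 0.969, 2.24 and 1.86 in HG/PA, and NONRATT020254.2 (49931 nt, chromosome 4), also with no more than 2 fragments in any sample. Con and HG/PA values overlapped on both sides of the threshold.

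The long-span lncRNAs were expressed at lower levels than the background. The median lncRNA had a mean FPKM of 0.899 in the 6 samples, against 1.38 for the other spliced lncRNAs, and a mean of 7.33 fragments against 10.5. An FPKM above 0 in all 6 samples was found for 365 of the 511 (71.4%), and for 81.5% of the background. In 118 of the 511 (23.1%) no sample exceeded 3 fragments, against 14.4% of the background. The Con samples were all at 0 for 16 long-span lncRNAs and the HG/PA samples for 14. Of these 30, 18 had 3 fragments or fewer in every sample and only 2 exceeded 3 fragments in at least 2 samples, so most of these absences were not detectable as differences at this depth.

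The comparison of HG/PA with Con used limma on log2(FPKM + 0.1) for the 17558 lncRNAs that reached an FPKM of 0.1 in 3 or more samples, and p values were adjusted by the Benjamini-Hochberg method over these 17558. Fold changes are on this scale, which understates the change of low lncRNAs. The filter kept 465 of the 511 long-span lncRNAs, and 46 were not tested. A lncRNA that passed only through the group where it is high had to differ, which was the case for 4 of the 465 and 137 of the 17558. Counts among the 465 are therefore a description.

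Few long-span lncRNAs passed the thresholds. At the thresholds of the study, a 2-fold change with an unadjusted p below 0.05, 31 of the 465 were dysregulated (6.67%), against 6.49% of all tested lncRNAs and 6.03% of the other spliced lncRNAs. Of the 31, 11 were upregulated and 20 were downregulated, and of all tested lncRNAs 2.59% and 3.9% were. With an adjusted p below 0.05 from limma, 6 of the 465 remained (1.29%), against 1.49% of all tested lncRNAs and 1.3% of the other spliced lncRNAs. Of the 6, 2 were upregulated and 4 were downregulated, against 0.655% and 0.832% of all tested lncRNAs. Both upregulated and 1 of the downregulated lncRNAs had passed the filter through a single group. Among the 461 that passed through both groups, 3 remained (0.651%, 0 upregulated and 3 downregulated), against 1.17% of all tested lncRNAs and 0.947% of the other spliced lncRNAs that did so. At any fold change, 10 of the 465 (2.15%) had an adjusted p below 0.05, against 2.77% of all tested lncRNAs and 2.10% of the other spliced lncRNAs. The Con and HG/PA values did not overlap in 101 of the 465 (30 higher and 71 lower in HG/PA), which was 21.7% against 23.6% of all tested lncRNAs (1306 higher and 2839 lower) and 20.9% of the other spliced lncRNAs, where 10% is the share that chance gives for 3 against 3 samples. At like levels the shares differed from those of the other spliced lncRNAs in opposite ways. With a mean below 10 fragments, 4 of 258 long-span lncRNAs passed the adjusted threshold (1.55% against 0.840%) and 16 the unadjusted one (6.20% against 7.06%). With 10 or more fragments, 2 of 207 passed the adjusted (0.966% against 1.68%) and 15 the unadjusted threshold (7.25% against 5.17%). When only lncRNAs with a mean of 10 or more fragments were fitted, a filter chosen after the data were seen, 4 of 208 long-span lncRNAs and 99 of 4596 other spliced lncRNAs passed the adjusted threshold. These differences were not tested.

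The median log2 fold change of the 465 was -0.15, and that of all tested lncRNAs was -0.11. After median-of-ratios rescaling of the samples, these medians were -0.04 and 0.01, so most of the -0.15 was a shift shared by all tested lncRNAs. Measured from the median of all tested lncRNAs, that of the 465 was -0.04, and 243 of them (52.3%) lay below that median. With the 4 tested lncRNAs that had a group at 0 set to their bound against 3 fragments per library, the median was -0.14. After median-of-ratios rescaling, the adjusted calls among the other spliced lncRNAs went from 48 upregulated and 61 downregulated to 55 and 34. The same rescaling gave 15 upregulated and 14 downregulated long-span lncRNAs at the unadjusted threshold. At the adjusted threshold it gave 3 and 3, where NONRATT022010.2 was gained. When a library was left out, the number of calls at the adjusted threshold was 2 without Con 1, 2 without Con 2, 1 without Con 3, 2 without HG/PA 1, 1 without HG/PA 2 and 5 without HG/PA 3. Not all of these were among the 6, of which 2, 1, 1, 2, 1 and 3 were kept, in the same order. With a pseudocount of 1, 8 passed the unadjusted and 3 the adjusted threshold.

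Median log2 fold changes were -0.15 in the 298 tested lncRNAs from 50 to below 100 kb, -0.16 in the 99 from 100 to below 200 kb and -0.12 in the 68 of 200 kb or more. Among the shorter spliced lncRNAs they were -0.14 below 3 kb, -0.09 from 3 to below 10 kb and -0.08 from 10 to below 50 kb. In the 3 long-span classes, in order of span, 4, 1 and 1 lncRNAs passed the adjusted threshold (1.34%, 1.01% and 1.47%) and 21, 8 and 2 the unadjusted one (7.05%, 8.08% and 2.94%). The quartiles of every class overlapped those of every other class by most of their range.

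**Figure D1:**
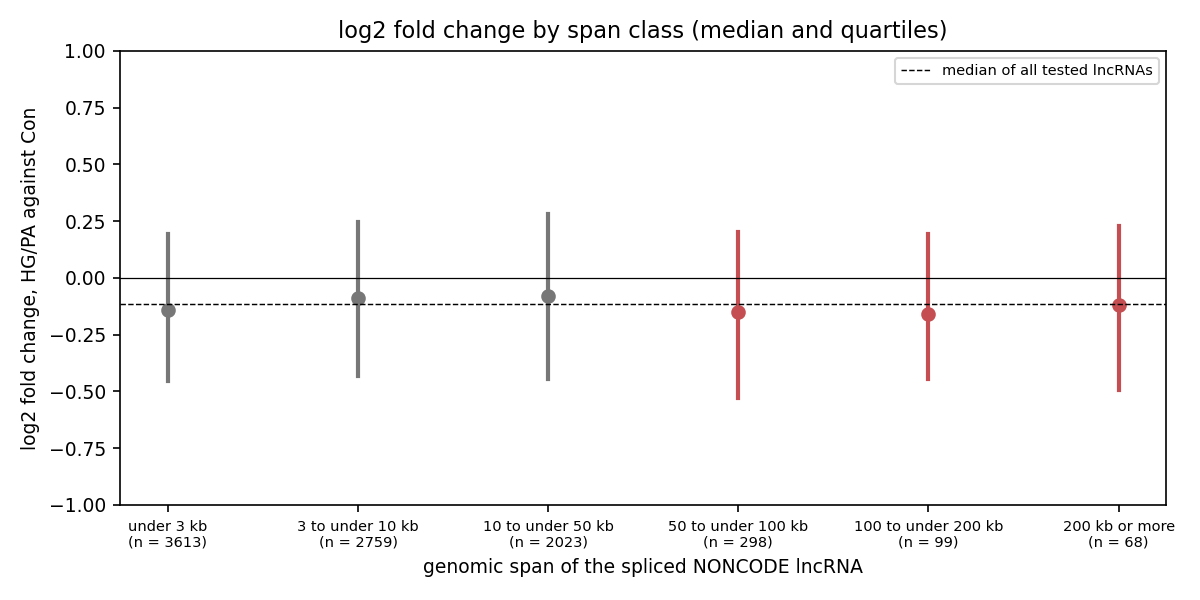
Median (point) and quartiles (bar) of the log2 fold change of HG/PA against Con, by genomic span of the tested spliced NONCODE lncRNAs, with the long-span classes in red. The medians lie between -0.16 and -0.08, close to the dashed median of all tested lncRNAs (-0.11).

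The lowest adjusted p of the long-span lncRNAs was that of NONRATT000951.2, which covers 94463 nt of chromosome 1 (157031006 to 157125468) and has a transcript length of 393 nt. The FPKM was 25.1, 26.1 and 25.4 in Con 1, 2 and 3 and 11.9, 10.6 and 12.9 in HG/PA 1, 2 and 3. All HG/PA samples lay near the same level, far below all Con samples. The means were 25.5 ± 0.488 (SD, n = 3) and 11.8 ± 1.17 (SD, n = 3), from 136, 128 and 125 fragments against 59, 57 and 67. In limma this was a log2 fold change of -1.11 (standard error 0.10, adjusted p = 0.00532). Con samples held 2.17 times as many fragments per sequenced fragment, with a 95% exact interval from 1.81 to 2.60. After rescaling by the median of ratios the log2 fold change was -0.98, just under a fold change of 2. In limma without a trend the adjusted p was 0.0513, and it stayed below 0.05 in each of the 6 fits that left out a sample. Over all alternatives it ranged from 0.00330 to 0.0634. No other listed lncRNA overlaps it.

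NONRATT024184.2 (chromosome 6, 48450847 to 48658080) is the only long-span lncRNA among those that the study took to qRT-PCR, so it was chosen from these samples. It covers 207234 nt, and its exons fill 0.228% of this span. It had 27, 41 and 31 fragments in Con 1, 2 and 3, against 4, 6 and 7 in HG/PA 1, 2 and 3, without overlap. Con samples held 5.94 times as many fragments per sequenced fragment (95% exact interval 3.53 to 10.6), and the log2 fold change of -2.46 had an adjusted p of 0.0118 from limma, with 3 of 6 fits that left out a sample below 0.05.

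NONRATT025537.2 (chromosome 7, 11565764 to 11626521) had an FPKM of 2.37, 1.01 and 1.60 in Con against 0, 0 and 0.191 in HG/PA. The groups did not overlap, and the HG/PA level rested on 1 fragment in HG/PA 3, against 13, 5 and 8 fragments in Con. The ratio of Con to HG/PA was 26.5 with a 95% exact interval of 4.35 to 1086, and the adjusted p of limma was 0.0276. Only 1 of the 6 fits that left out a sample, that without HG/PA 3, kept an adjusted p below 0.05, and limma without a trend gave 0.0540, in a range from 0.0303 to 0.106 over all alternatives. The 2 listed lncRNAs inside its span were measured in every sample, with 9, 10 and 8 against 8, 6 and 4 fragments for NONRATT026470.2 and 5, 8 and 5 against 3, 4 and 1 for NONRATT025539.2. In FPKM both were lower in every HG/PA sample than in any Con sample. For NONRATT026470.2 the nearest samples, Con 3 and HG/PA 1, both held 8 fragments (FPKM 0.975 and 0.965). Neither lncRNA had an adjusted p below 0.05 in limma (0.431 and 0.306). NONRATT025538.2, which overlaps NONRATT025537.2 without lying inside it, held 1 fragment in every sample.

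The other 3 of the 6 calls rested on at most 2 fragments in any library, at or under the floor in both groups, so no fold change is given. Each was at 0 in all samples of a group and had passed the filter only through the group where it was high, so its test was conditioned on the difference. NONRATT020578.2 (chromosome 4, 101356674 to 101428063) had 2, 1 and 1 fragments in Con and 0 in each HG/PA sample. NONRATT008863.2 (chromosome 13, 76570786 to 76629853) had 0 in each Con sample and 1, 2 and 1 in HG/PA, and NONRATT013301.2 (chromosome 18, 25750994 to 25862796) had 0 in each Con sample and 2, 2 and 2 in HG/PA. The groups did not overlap. Limma's adjusted p was 0.0437, 0.0346 and 0.0159, and it was above 0.05 in each of the 6 fits that left out a sample. With limma-voom on the fragments it was 0.0984, 0.109 and 0.0422. Over all alternatives the adjusted p ranged from 0.0375 to 0.163, from 0.0324 to 0.141 and from 0.0141 to 0.110.

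**Figure D2:**
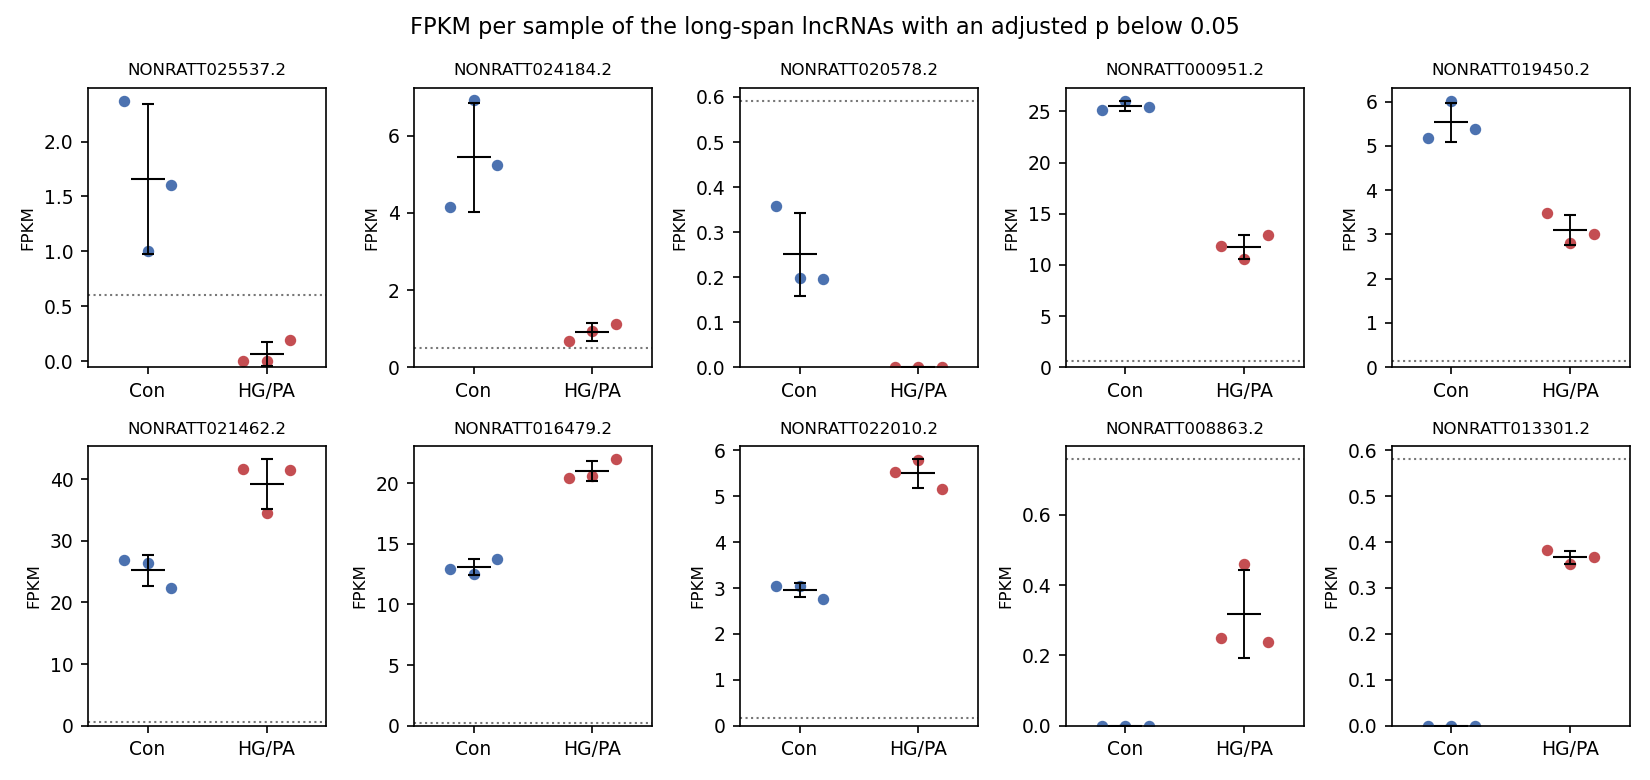
FPKM in each sample (points), with mean and SD (n = 3, black), of the 10 long-span lncRNAs with an adjusted p below 0.05 from limma at any fold change, and the FPKM of 3 fragments in the shallowest library (dotted line). NONRATT020578.2, NONRATT008863.2 and NONRATT013301.2 lie wholly below the dotted line, and the groups do not overlap in any of the 10.

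With changes below 2-fold, 4 further long-span lncRNAs had an adjusted p below 0.05, and each rested on more than 50 fragments in every library. They were named for this after their values were seen, except NONRATT021462.2. NONRATT016479.2 (chromosome 2, 174321305 to 174413296) had an FPKM of 13.0, 12.5 and 13.8 in Con against 20.5, 20.6 and 22.0 in HG/PA (log2 fold change 0.68 with a standard error of 0.09, limma's adjusted p = 0.0157). NONRATT022010.2 (chromosome 5, 2400159 to 2497916) had 3.05, 3.04 and 2.77 in Con against 5.54, 5.79 and 5.17 in HG/PA (log2 fold change 0.87, limma's adjusted p = 0.0325). After median-of-ratios rescaling its log2 fold change was 1.00, and after quantile normalization it was 1.03, so that it passed the 2-fold threshold in both. NONRATT019450.2 (chromosome 3, 79279075 to 79390956) had 5.18, 6.02 and 5.38 in Con against 3.48, 2.81 and 3.00 in HG/PA (log2 fold change -0.82, limma's adjusted p = 0.0493). Both of the former were upregulated and the latter was downregulated, with no overlap between Con and HG/PA. In the plot of group means most other long-span lncRNAs lay between the lines of a 2-fold change, as 404 of the 465 (86.9%) did on the fitted scale.

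**Figure D3:**
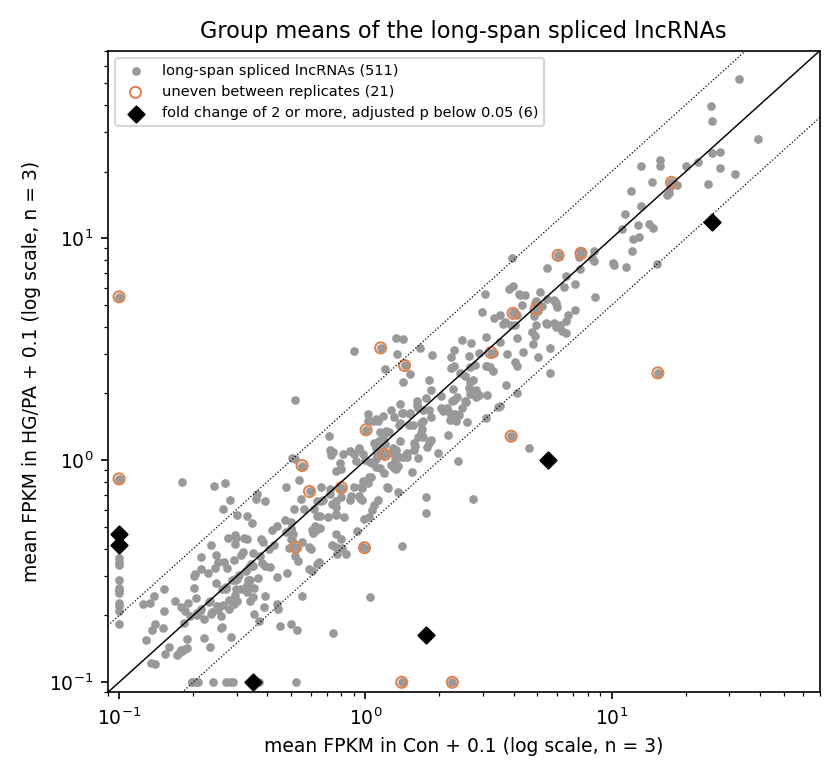
Mean FPKM + 0.1 of each long-span lncRNA in Con (x axis) and HG/PA (y axis), both on a log scale, n = 3 each, with the line of equality and dotted lines at a 2-fold difference. Of the 6 calls (diamonds) only NONRATT000951.2 and NONRATT024184.2 lie above an FPKM of 5 in Con, and several of the 21 lncRNAs that differ between replicates (circles) lie outside the 2-fold lines.

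Among the 6 long-span lncRNAs with the highest mean FPKM, changes were small and went both ways. NONRATT021462.2 (chromosome 4, 89695627 to 89778307) had an FPKM of 26.9, 26.3 and 22.3 in Con against 41.6, 34.6 and 41.4 in HG/PA. It was upregulated without overlap of the groups (log2 fold change 0.64 with a standard error of 0.11, limma's adjusted p = 0.0403), although no fit that left out a sample kept an adjusted p below 0.05. NONRATT012810.2 (chromosome 17) had 39.2, 41.1 and 37.8 in Con against 28.9, 30.5 and 24.7 in HG/PA, and NONRATT019545.2 (chromosome 3) had 25.2, 27.0 and 23.9 in Con against 35.3, 33.7 and 31.7 in HG/PA. Neither group overlapped the other in either lncRNA, yet limma's adjusted p was 0.0517 and 0.0564. It was 0.0372 and 0.0421 where 3 samples had to reach an FPKM of 1. After median-of-ratios rescaling it was 0.129 and 0.0266, and in limma without a trend 0.251 and 0.300. NONRATT021312.2 (chromosome 4, 277473 nt) had 36.7, 32.0 and 26.0 in Con against 17.9, 15.6 and 24.5 in HG/PA, where HG/PA 3 came close to Con 3 (adjusted p = 0.124 from limma). NONRATT025028.2 (chromosome 6) held 270, 310 and 287 fragments in the Con libraries and 252, 278 and 259 in those of HG/PA, so that its groups overlapped.

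NONRATT021239.2 (chromosome 4, 34674288 to 34780139) had the highest mean FPKM, with 21.5, 43.8 and 33.5 in Con against 69.9, 42.4 and 44.0 in HG/PA. Con 1 was low and HG/PA 1 was high, and HG/PA 2 lay below Con 2 (log2 fold change 0.68 with a standard error of 0.30, limma's adjusted p = 0.307). Inside its span lies NONRATT021240.2, with 699, 915 and 754 fragments in Con 1, 2 and 3, against 1067, 738 and 616 in HG/PA 1, 2 and 3, so Con 1 was also the lowest Con sample and HG/PA 1 the highest HG/PA sample of this lncRNA. The sum of both was 90.3 ± 21.1 FPM (scaled by library depth as in FPKM, but not by length) in Con against 107 ± 33.3 in HG/PA (SD, n = 3 each, two-sided exact permutation test, p = 0.6).

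The lncRNAs with the largest spans were mostly at the limit of detection. NONRATT030322.2 on chromosome 9 (101583397 to 102613788), the largest at 1030392 nt, had 5, 0 and 3 fragments in Con 1, 2 and 3, against 0, 0 and 5 in HG/PA 1, 2 and 3, and was not tested. NONRATT008292.2 (898714 nt, chromosome 13), NONRATT003070.2 (723510 nt, chromosome 1) and NONRATT028252.2 (525245 nt, chromosome 8) had no more than 2 fragments in any sample, and NONRATT011536.2 (687522 nt, chromosome 16) had no more than 4. No difference was detectable for these at this depth. NONRATT000742.2 (678918 nt, chromosome 1, 108220966 to 108899883) was the exception, with an FPKM of 6.86, 5.88 and 4.88 in Con against 3.87, 4.34 and 3.45 in HG/PA. This came from 54, 42 and 35 fragments in Con 1, 2 and 3, and 28, 34 and 26 in HG/PA 1, 2 and 3. No HG/PA value reached the lowest Con value, but the adjusted p was 0.165 in limma (log2 fold change -0.58, standard error 0.18). NONRATT008292.2 holds an unspliced listed lncRNA, NONRATT008790.2, with 18, 25 and 17 fragments in Con 1, 2 and 3, against 65, 72 and 72 in HG/PA 1, 2 and 3 (log2 fold change 1.74, adjusted p = 0.012 from limma). The spliced transcript around it had 1, 1 and 0 fragments against 1, 0 and 1.

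Of the 31 lncRNAs past the unadjusted threshold, 15 had a mean of 10 or more fragments, 6 of them higher and 9 lower in HG/PA, and 5 had 3 fragments or fewer in every sample. Their groups overlapped in 3 of the 31. Examples, chosen after their values were seen, were NONRATT027182.2 (chromosome 7), with an FPKM of 15.7, 13.1 and 16.8 in Con against 9.84, 5.59 and 7.28 in HG/PA, and NONRATT015915.2, with 9, 14 and 13 fragments in Con 1, 2 and 3, against 39, 26 and 31 in HG/PA 1, 2 and 3. Neither had an adjusted p below 0.05 in limma with the filter used here (0.0646 and 0.0728). Among the 34 tested long-span lncRNAs with a mean of 100 or more fragments, 15 had a log2 fold change above 0 and 19 below 0, whereas 23 lay above the median of all tested lncRNAs. Of the 34, 4 had a fitted fold change of 2 or more, and 2 of these 4 were uneven between replicates. None of the 4 had an adjusted p below 0.05 in limma with the filter used here and all samples. NONRATT027182.2 passed where 3 samples had to reach an FPKM of 1 (limma's adjusted p = 0.0452). It also passed when only lncRNAs with a mean of 10 or more fragments were fitted (limma's adjusted p = 0.0457). NONRATT011937.2 passed without Con 2 (limma's adjusted p = 0.0125). Con 2 was the replicate that differed from its group, so this outcome follows from the sample that was removed. The 3 of the 34 with an adjusted p below 0.05 were NONRATT016479.2, NONRATT019450.2 and NONRATT021462.2, each with a change below 2-fold.

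Long-span lncRNAs often lay over each other. Joined by overlapping spans, the 511 formed 438 loci, of which 381 held a single long-span lncRNA and 57 held 2 or more, 130 lncRNAs in all. The loci with the most members were a locus of 8 and, tied, 3 loci of 4. In 47 loci at least 2 members were tested, and in 29 of these all had log2 fold changes of the same sign (20 below 0 and 9 above 0), while 18 had both signs. Of all 465 tested long-span lncRNAs 290 (62.4%) were below 0, and 52.3% were below the median of all tested lncRNAs, so these counts of loci include the shared shift. Overlapping lncRNAs may share fragments, and how the authors' counting divided them is not given in the sources used here.

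The locus of 8 lies on chromosome 1 from 146746270 to 146823762 and holds NONRATT002857.2 to NONRATT002864.2. NONRATT002863.2 had 158, 4 and 106 fragments in Con 1, 2 and 3 and 151, 120 and 0 in HG/PA 1, 2 and 3. NONRATT002860.2 had 67, 23 and 4 in Con against 31, 0 and 55 in HG/PA, and NONRATT002857.2 had 120, 268 and 217 in Con against 160, 268 and 346 in HG/PA. Samples that were low in NONRATT002863.2, namely Con 2 and HG/PA 3, were the highest of their groups in NONRATT002857.2. The log2 fold changes of the 7 tested members ranged from -1.72 (NONRATT002862.2) to 1.15 (NONRATT002864.2), with 4 above and 3 below 0 and no adjusted p below 0.367 in limma. With a sample left out, that of NONRATT002862.2 was from -2.99 to -0.78 and that of NONRATT002864.2 from 0.40 to 2.64. Summed over all 8, the locus held 371, 342 and 369 fragments in Con 1, 2 and 3, against 410, 455 and 432 in HG/PA 1, 2 and 3. In FPM this was 26.9, 27.4 and 29.5 in Con against 32.4, 33.2 and 32.8 in HG/PA, with means of 27.9 ± 1.34 and 32.8 ± 0.424 (SD, n = 3 each). The sum differed little between replicates where single members differed from near 0 to over 100 fragments, and all HG/PA sums were above all Con sums by a ratio of means of 1.17 (exact permutation test, two-sided, p = 0.1, which is the lowest value that 3 against 3 samples allow). This sum was taken after the single values were seen. Con and HG/PA sums also did not overlap in other loci, higher in some and lower in others. The sum leaves out NONRATT002855.2 and NONRATT002856.2, listed lncRNAs that overlap the locus. The former held no more than 3 fragments in any sample. The latter held 351, 285 and 312 fragments in Con 1, 2 and 3, against 379, 290 and 358 in HG/PA 1, 2 and 3, with overlapping groups.

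The loci of 4 lay on chromosomes 17, 2 and 7. On chromosome 17, from 48747 to 357114, NONRATT012687.2, NONRATT012689.2, NONRATT012693.2 and NONRATT012694.2 summed to 212, 201 and 176 fragments in Con 1, 2 and 3, against 192, 222 and 213 in HG/PA 1, 2 and 3, with log2 fold changes from -0.36 (NONRATT012687.2) to 0.31 (NONRATT012693.2). On chromosome 2, from 12251343 to 12538495, 4 lncRNAs summed to 58, 39 and 46 in Con against 47, 37 and 35 in HG/PA, with log2 fold changes from -0.49 (NONRATT014891.2) to 1.02 (NONRATT014890.2). The latter rested on 16 fragments in HG/PA 1 against 1 or 2 in every other sample. On chromosome 7, from 102648929 to 102744760, the sums were 8, 7 and 7 in Con against 5, 8 and 4 in HG/PA, and 3 of the members, all but NONRATT025985.2 (log2 fold change -0.65), had 3 fragments or fewer in every sample, so that no fold change is given for them. With a sample left out, the log2 fold change of NONRATT025985.2 was from -1.35 (HG/PA 2) to -0.30 (HG/PA 3). Con and HG/PA overlapped in the sums of all 3 loci, and no member had an adjusted p below 0.05 in limma.

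**Figure D4:**
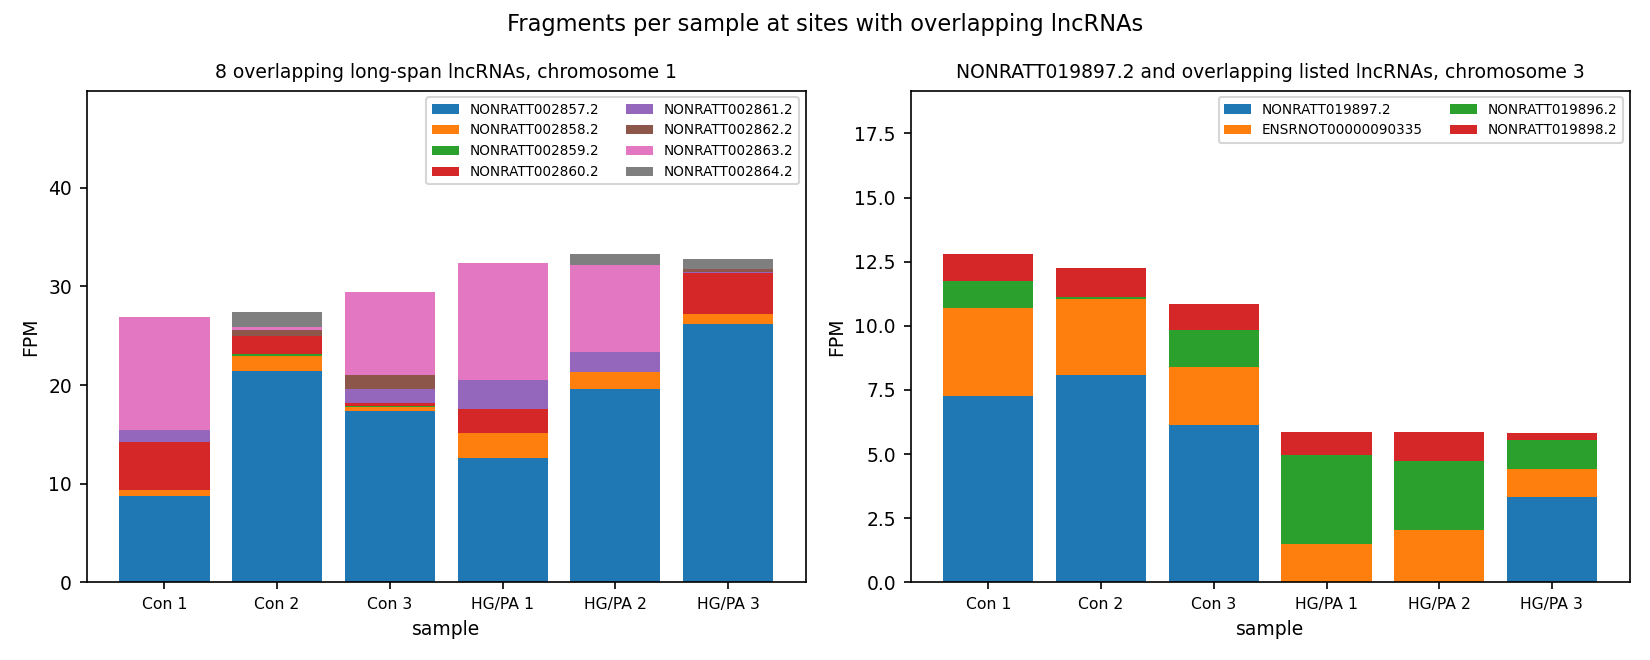
FPM (fragments scaled by library depth as in FPKM, but not by length) in each sample, stacked by lncRNA, for the locus of 8 long-span lncRNAs on chromosome 1 (left) and for NONRATT019897.2 with the listed lncRNAs that overlap it on chromosome 3 (right). The totals run from 26.9 to 29.5 in Con and from 32.4 to 33.2 in HG/PA on the left, and from 10.9 to 12.8 in Con against 5.84 to 5.85 in HG/PA on the right, while the lncRNAs that make them up differ between replicates.

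Such unevenness between replicates was not limited to that locus. Among the 190 long-span lncRNAs with 20 or more fragments in a sample, 21 (11.1%) had, within a group, a replicate with at least 20 fragments and another with 0.1 of that or less, against 287 of 4084 (7.03%) of the other spliced lncRNAs. With 50 fragments in place of 20 it was 7 of 91 (7.69%) and 120 of 2047 (5.86%). This measure was chosen after the values were seen, and the difference was not tested. Of the 21, 6 were uneven among the Con samples alone, 9 among the HG/PA samples alone and 6 in both groups. None had an adjusted p below 0.05 in limma with all samples, and 4 of the 21 were not tested. With a sample left out, some passed the adjusted threshold in limma. NONRATT011937.2 did so without Con 2 (adjusted p = 0.0125). NONRATT019897.2 and NONRATT020509.2 did so without HG/PA 3 (adjusted p = 0.00349 and 0.0274). In each the sample left out was the replicate that differed from its group.

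NONRATT020646.2 (chromosome 4), which had the most fragments of the long-span lncRNAs, held 1317, 1149 and 15 in Con 1, 2 and 3 and 1328, 1327 and 182 in HG/PA 1, 2 and 3. Con 3 and HG/PA 3 were the low samples, and its 2 overlapping listed lncRNAs showed no such drop, with 26, 31 and 28 fragments in Con 1, 2 and 3, against 18, 24 and 25 in HG/PA 1, 2 and 3 for NONRATT020647.2. NONRATT021076.2 (chromosome 4) held 39, 299 and 472 in Con against 605, 31 and 520 in HG/PA and overlaps no listed lncRNA. NONRATT020530.2 (chromosome 4) held 176 fragments in HG/PA 2 and 0 in the other 5 samples. In none of these did the high samples follow the groups.

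**Figure D5:**
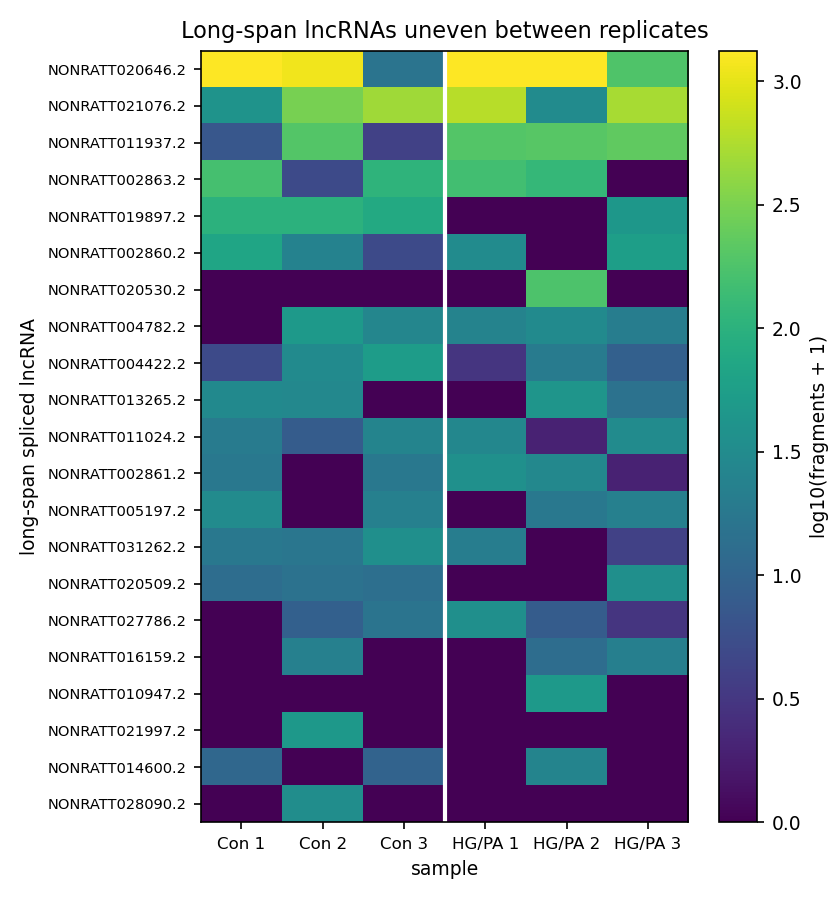
Fragments per sample, as log10(fragments + 1) on the colour scale, of the 21 long-span lncRNAs that were uneven between replicates of a group, with Con left and HG/PA right of the white line. Dark cells beside bright cells within a group mark replicates with few or 0 fragments, which occur in each of the 6 samples.

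The largest fitted changes of either direction were of this kind. NONRATT011937.2 (chromosome 16, 118860 nt) had the highest log2 fold change, with 6, 191 and 3 fragments in Con 1, 2 and 3, against 191, 204 and 226 in HG/PA 1, 2 and 3. Con 2 stood at the HG/PA level and the other Con samples near 0, and the log2 fold change of 2.86 (standard error 1.12) had an adjusted p of 0.255 from limma. Without Con 2, the replicate that differed from its group, the log2 fold change was 4.27 (limma's adjusted p = 0.0125). NONRATT019897.2 (chromosome 3, 60742 nt) had the lowest, with 100, 101 and 77 fragments in Con 1, 2 and 3, against 0, 0 and 44 in HG/PA 1, 2 and 3 (log2 fold change -5.20 with a standard error of 1.60, limma's adjusted p = 0.16). Without HG/PA 3, the replicate that differed from its group, the log2 fold change was -7.26 (limma's adjusted p = 0.00349). NONRATT019896.2, of nearly the same span (60920 nt), had 15, 1 and 18 in Con against 44, 37 and 15 in HG/PA, and so was high where NONRATT019897.2 was at 0. Both together held 115, 102 and 95 fragments in Con 1, 2 and 3, against 44, 37 and 59 in HG/PA 1, 2 and 3, or 8.03 ± 0.401 against 3.55 ± 0.888 FPM (SD, n = 3 each). With the 2 other listed lncRNAs that overlap, the sums were 176, 153 and 136 in Con against 74, 80 and 77 in HG/PA, a ratio of HG/PA to Con of 0.489. Both sums were lower in every HG/PA sample than in every Con sample (two-sided exact permutation test, p = 0.1 for each, the smallest possible), and they were taken after the single values were seen.

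A pair on chromosome 10 showed values of the same kind. NONRATT004782.2 had 0, 46 and 26 fragments in Con 1, 2 and 3, against 24, 30 and 20 in HG/PA 1, 2 and 3, and NONRATT004783.2, which overlaps it, had 22, 20 and 11 in Con against 9, 3 and 0 in HG/PA. NONRATT004783.2 passed the unadjusted threshold (log2 fold change -2.92). Together they held 22, 66 and 37 fragments in Con 1, 2 and 3, against 33, 33 and 20 in HG/PA 1, 2 and 3, a ratio of HG/PA to Con of 0.665 in FPM with overlapping groups (two-sided exact permutation test, p = 0.4, where 0.1 is the smallest possible).

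Replicates agreed only in part across the tested long-span lncRNAs. Pearson's r of log2(FPKM + 0.1), across 465 lncRNAs that share libraries and are not independent replicates, ran from 0.826 to 0.860 for pairs within a group and from 0.797 to 0.865 for pairs of a Con and an HG/PA sample. Without the uneven lncRNAs, r was 0.874 to 0.899 for the former and 0.845 to 0.871 for the latter (n = 448), but as these were picked for differing between replicates, leaving them out favours the pairs within a group. Fragments of long-span lncRNAs with a mean of at least 10 had a chi-square between pairs of replicates, divided by its degrees of freedom, of 6.56 to 11.6. The median chi-square of the same pairs was 0.800 to 1.13, where counting error alone gives 0.455.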

How the data were processed

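Total RNA of 3 Con and 3 HG/PA samples was made into strand-specific libraries. The authors filtered reads with seqtk, mapped them to Rnor_6.0 with HISAT2 and deposited FPKM values per annotated lncRNA, for which the paper names StringTie, with edgeR for its own test. FPKM times length gave whole fragments within 0.1 step. Because the values are FPKM, limma 3.58.1 in R 4.3.3 (lmFit, eBayes with a trend) was run on log2(FPKM + 0.1), with an FPKM of at least 0.1 in 3 of 6 samples, on the whole table, without further scaling or block. It was first run on simulated fragments with known changes. The simulation used the same spread setting for every lncRNA and held no uneven replicates, so it does not cover lncRNAs of that kind. Python 3.11.15 with numpy 2.4.6, pandas 2.3.3, scipy 1.17.1 and matplotlib 3.10.9 did the rest. Ratios of fragments have exact conditional binomial intervals.

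Named were the members past a 2-fold change at an adjusted p below 0.05, the 6 with the highest mean FPKM, the 6 with the largest span, the 2 inside and 2 outside the span threshold, members of the study's qRT-PCR panel, and the loci with the most members (4, because of ties). Members and lists were chosen with earlier results of these data known. The paper calls the samples a biological triplicate, but no source states separate cultures, so p values measure the spread between these samples, which may be technical. Alternatives were pseudocounts of 0.01 and 1, other filters, scalings and span thresholds, limma without a trend, limma-voom on fragments, a replicate block, samples left out and a fold change of 1.5. Protein-coding genes, sequences and the qRT-PCR were not analysed here.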

Additional observations from a re-analysis of the deposited data

How the results depend on the processing

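Of the 465 tested long-span lncRNAs, 31 passed the unadjusted threshold. The number became 8 with a pseudocount of 1, and 17 of 252 tested where 3 samples had to reach an FPKM of 1. It was 57 with a fold change of 1.5, 60 with a span of at least 25000 nt and 10 with 100000 nt. Filters and span thresholds changed which lncRNAs were counted, and shares of all tested lncRNAs are not given under these alternatives. The counts therefore describe the long-span lncRNAs alone. With a mean of at least 10 fragments, a filter chosen after the data were seen, the number was 15. Without each sample in turn it was from 27 to 34. The number past a 2-fold change and an adjusted p below 0.05 from limma was 6. It became 3 with a pseudocount of 1, 10 with a fold change of 1.5, 12 with 25000 nt and 2 with 100000 nt. Without each sample it was from 1 to 5, and at most 3 of the 6 themselves were kept. The number of other spliced lncRNAs past both of these thresholds, 109, became 63 with a pseudocount of 1 and 69 without a trend. It ran from 40 to 59 without each sample. The median log2 fold change of -0.15 became -0.0612 with a pseudocount of 1, -0.0403 with the median of ratios, -0.0573 with quantile normalization and -0.10 with 25000 nt, and ranged from -0.16 to -0.12 without each sample. Apart from the changed lists of lncRNAs, fewer samples and the changed thresholds, the cause was not tested.

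The replicate number of the sample records was also used as a replicate block. Limma then gave 0 long-span and 3 other spliced lncRNAs with a 2-fold change and an adjusted p below 0.05. At the unadjusted threshold it gave 31 long-span lncRNAs, and the median stayed at -0.15. The sample records do not say whether a number marks a shared culture or day. Deviations from the group means correlated at -0.0174, -0.0144 and -0.0322 between samples of the same number. Between samples of different numbers r was from -0.0179 to 0.0350. These values cannot decide whether samples of the same number were paired, as most lncRNAs held few fragments.

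Of 461 alternative values for 30 named lncRNAs, 392 kept their sign and side of an adjusted p of 0.05, 51 were no longer below it, 5 passed it and 13 changed sign, none of them of a lncRNA with an adjusted p below 0.05. NONRATT012694.2 was 0.12 with the median of ratios and 0.0852 with quantile normalization, and without a sample it was from -0.0855 (Con 3) through 0.0145 (Con 1) to 0.0514 (Con 2). The others ranged as follows when a sample was left out: NONRATT002857.2 from -0.0466 (Con 1) to 0.61 (HG/PA 1), NONRATT002860.2 from -1.84 (HG/PA 3) through 0.0954 (Con 1) to 1.08 (HG/PA 2), NONRATT002861.2 from -0.51 (Con 2) to 2.33 (HG/PA 3), NONRATT002863.2 from -2.63 (Con 2) to 1.65 (HG/PA 3), NONRATT012689.2 from -0.0131 (HG/PA 2) to 0.12 (Con 1), NONRATT014892.2 from -0.78 (Con 1) through 0.024 (HG/PA 1) to 0.39 (Con 3), and NONRATT024391.2 from -0.71 (HG/PA 2) to 0.0264 (HG/PA 3). A mean of 10 or more fragments was found for 208 of the 511.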
